A study of Caenorhabditis elegans with 2 samples.

Results

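The ceh genes, named for *Caenorhabditis elegans* homeobox, were examined for binding by the sex determination factor TRA-1. They were taken as all protein-coding genes of the Ensembl WBcel235 annotation whose names start with ceh-, leaving out ceh-13, ceh-22, ceh-30 and ceh-39. This gave 59 of the 19985 protein-coding genes. The other 19926 protein-coding genes served for comparison. Chromatin immunoprecipitation and sequencing was done on 2 biological replicates of whole larvae of strain DZ840. Its tra-1 allele, ez72 on III, is a CRISPR insertion that adds biotag, GFP, TEV and 3xflag to the protein. Both replicates were L4 larvae aged 48 h, from cultures synchronised by bleaching and starvation at L1, and an antibody against GFP was used. All animals carried the tag, the sex was not recorded, and whole animals mix every tissue. The control that the labels point to was not analysed here.

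TRA-1, a relative of the GLI proteins that binds DNA by zinc fingers, acts last in the somatic sex determination pathway and is known for repressing male genes in hermaphrodites. Homeobox genes encode transcription factors that bind DNA through a homeodomain. In the worm many of them fix the identity of individual neurons, and others pattern the skin, muscle, gut or gonad. L4 is the larval stage in which the sex-specific parts of the gonad, vulva and tail take shape.

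The values are those of peak lists that the authors deposited on the ce11 build, whose sequence WBcel235 shares. A site is a peak of the conservative thresholded list made from both replicates, which held 2703 sites. A gene was counted as having a site when the summit of a peak lay in its territory, which ran from 2000 bp before the gene start through the gene end. The irreproducible discovery rate (IDR) of a peak measures how poorly its rank is reproduced between replicates, and the authors kept peaks with an IDR of about 0.01 or lower, which is a −log10 IDR of 2 or higher. The signal of a peak is the authors' own value and ranks peaks within a list. The lists hold no read counts, so the depth of the libraries is unknown.

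Few ceh genes had a TRA-1 site. A site lay in the territory of 5 of 59 ceh genes (8.47%, 95% Wilson interval 3.67 to 18.4%), namely ceh-5, ceh-37, ceh-38, ceh-60 and ceh-99. Of all protein-coding genes tested, 11.2% had one, and of the other genes 2230 of 19926 did (11.2%, interval 10.8 to 11.6%). The share of the other genes lay inside the interval of the ceh genes, so no difference was detectable with this number of genes. The intervals cover counting error only and treat genes as independent. With 1 group of samples and pooled peak lists, no test over samples was possible.

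The territories of the ceh genes were longer, with a median of 4818 bp against 4024.5 bp for the other genes. Above 3 kb the share of other genes with a site rose with territory length. Under 3 kb that share was 8.19%, above the 7.25% at 3 to 4 kb. For each ceh gene the other genes whose territory was within 10% of its length were therefore used, between 82 and 4484 genes with a median of 2752. On average 11.8% of such genes had a site, which would amount to 6.99 of 59 genes where 5 were found. The difference, ceh genes minus genes of like length, was −3.37 percentage points and was not tested. Its sign was not stable, at 0.391 with the peaks of replicate 1 alone and −1.55 with those of replicate 2 alone. In the class of 3 to 4 kb, which held the most ceh genes, 0 of 17 had a site (Wilson upper bound 18.4%), against 7.25% of the other genes.

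**Figure D1:**
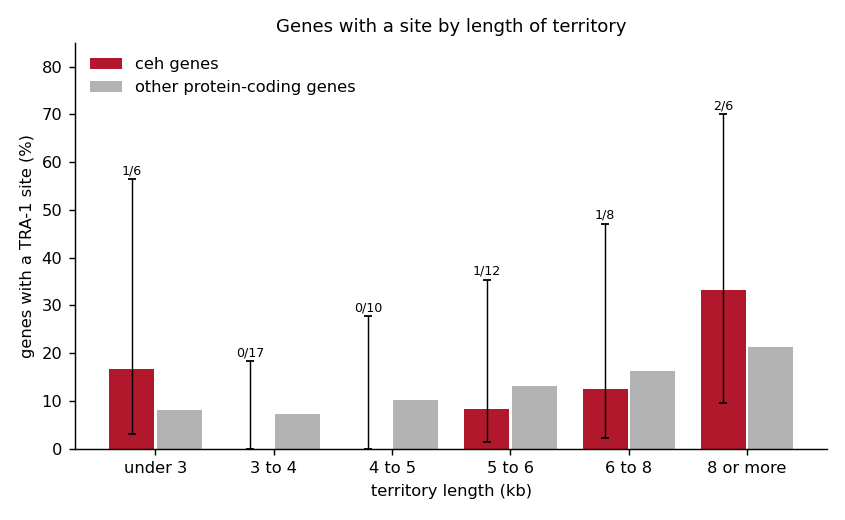
Share of genes with a TRA-1 site (%) by the length of the territory (kb) for ceh genes (left bars, with 95% Wilson intervals and the number with a site out of all in the class) and other protein-coding genes (right bars). The other genes went up to 21.4% in the longest class, where 2 of 6 ceh genes had a site, and in each class their share lay inside the interval of the ceh genes.

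The ceh territories, with overlaps merged, made up 321.8 kb and held 7 sites, or 21.8 sites per Mb, against 26.4 per Mb in the territories of the other genes. The 7 sites formed 6 separate regions. Of the 59 genes, 4 had 1 site and ceh-60 had 3, of which 2 overlapped. Among the other genes 1.6% had 2 sites and 0.472% had 3 or more. These shares were not matched on length, and the ceh-60 territory was long, at 9551 bp. The X chromosome carried 27.1% of the ceh genes, against 13.6% of the other genes, and 2 of the 16 ceh genes on X had a site (12.5%), against 16.4% of the other genes on X. A site lay at 2 of 13 ceh genes on II, against 11% of the other genes there, and at 1 of 8 on I, against 11.8%. None of the 22 ceh genes on III, IV and V had one, against 14.2% of the other genes on III, 9.28% on IV and 7.87% on V. At those shares 2.23 of the 22 would have a site, and over all chromosomes 7.22 of the 59 would.

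The sites at ceh genes were of middling rank. Their signals ran from 6.146 to 198.5, and the median of all 2703 sites was 105.3. The IDR was at most 0.001 at 4 of the 7 sites, against 48.9% of all sites. The separate lists of both replicates held 3 of the 7, against 35.3% of all sites, and neither replicate's list held 2 of them, against 34.6%. All 7 had a higher signal in replicate 1 than in replicate 2, as did 69.6% of all sites. The 2 sites in neither list were the overlapping pair upstream of ceh-60. That pair shares the same replicate peaks, so these counts rest on 6 separate regions. The scale of the signal in the replicates' separate lists is not given in the sources used here.

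**Figure D2:**
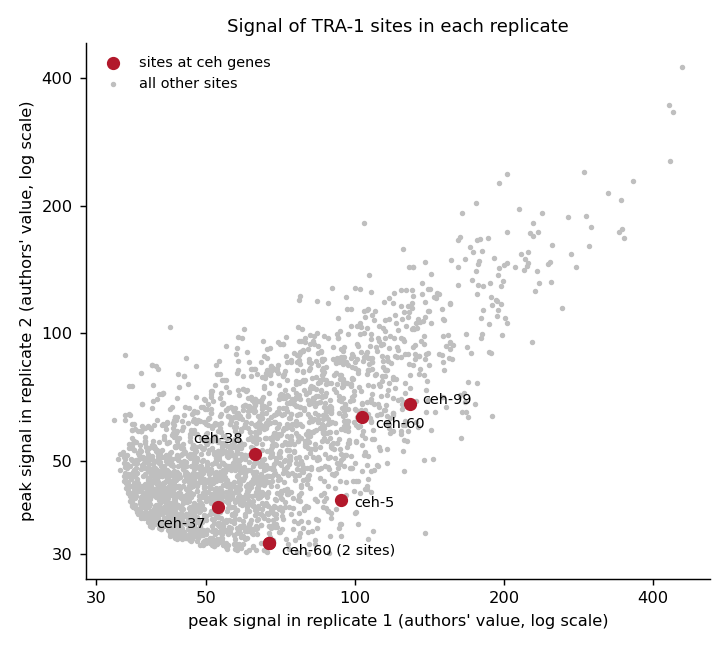
Peak signal of each site of the conservative list in replicate 1 (x axis) and replicate 2 (y axis), taken from the strongest overlapping peak in each replicate's ranked list, on log scales, for the 7 sites at ceh genes (large points) and all other sites (small points). The ceh sites lie within the cloud of all sites, and 39 sites with no overlapping ranked peak in a replicate are not drawn.

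No homeobox class of ceh genes held more than 1 gene with a site, and 11.2% of all protein-coding genes had one. With so few genes in a class, these counts set no class apart and were not tested. The PBC class, relatives of the Pbx proteins that act as partners of Hox proteins, had 1 of 3 genes with a site. This was ceh-60 on the minus strand of X, at chrX:6522596-6530146, whose product is known to act in the intestine on yolk protein genes. Its strongest site lay near the far end of the gene, with a signal of 169.8 (rank 426 of 2703) and a −log10 IDR of 4.20. Its signal was 103.4 in replicate 1 and 63.34 in replicate 2, and the lists of both replicates held it. The summit lay in an intron, 7154 bp downstream of the start, 6 bp from the nearest exon edge and 396 bp from the gene's end. The nearest protein-coding start was that of ets-4, 4109 bp away.

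The other 2 sites of ceh-60 lay upstream of the gene, outside any protein-coding gene. Their summits were 662 bp and 862 bp upstream of the start, the peaks overlapped, and both had a −log10 IDR of 2.19. Their signals differed widely, at 102.3 for the nearer (rank 1446) and 6.146 for the farther (rank 2672). Both overlapped the same replicate peaks, with a signal of 67.02 in replicate 1 and 31.86 in replicate 2, and neither replicate's own list held them. In the whole list 55 sites had a signal below 10, and 54 of those overlapped another site. The upstream pair was counted as 1 of the 6 regions.

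The sequences within 50 bp of 4 summits outside UTRs are given 5′ to 3′ on the strand of the gene, chosen as the 2 strongest sites at any ceh gene, the stronger of the upstream pair at ceh-60 and the weaker intron site of ceh-37, which held one of the closest matches to the core. They were read from RefSeq WBcel235 at chrX:6522942-6523042 and chrX:6530758-6530858 for ceh-60, chrX:14200358-14200458 for ceh-37 and chrII:12518984-12519084 for ceh-99. Capitals mark the best match to the 9-base TRA-1 core TGGGTGGTC where it had at most 2 mismatches, and a sequence with no capitals had no such match. The capitals mark likeness in sequence only and do not show that TRA-1 binds there.
ceh-60, intron site: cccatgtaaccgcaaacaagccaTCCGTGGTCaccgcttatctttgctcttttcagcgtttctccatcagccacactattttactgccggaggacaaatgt
ceh-60, upstream site: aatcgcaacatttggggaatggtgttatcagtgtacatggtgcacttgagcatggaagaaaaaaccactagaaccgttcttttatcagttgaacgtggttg
ceh-37, intron site: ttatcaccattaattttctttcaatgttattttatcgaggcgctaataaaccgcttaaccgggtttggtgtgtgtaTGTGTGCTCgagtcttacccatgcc
ceh-99, upstream site: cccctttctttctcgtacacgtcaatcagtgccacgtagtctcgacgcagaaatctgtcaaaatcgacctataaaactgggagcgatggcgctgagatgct

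None of the 7 summits had the core with at most 1 mismatch within 50 bp, on either strand, against 2.15% of all sites. With at most 2 mismatches it lay at 2 of 7, against 19.2% of all sites. How often windows away from sites hold so loose a match was not counted, so these matches cannot be told from chance ones. At the intron site of ceh-60 the match differed from the core by G2C and G3C, and at ceh-37 by G3T and G7C, counted from 1 at the 5′ end of the core. Of 3 words of 7 bases searched on both strands, none lay at any of the 7 sites. TGATAAG lay at 9.29% of all sites, the repeat CTCTCTC at 8.44% and the word GAGACGC at 6.51%. The 3 words came from an earlier analysis of these same data, so their shares of all sites are not independent of that choice. At shares this low, their absence from 7 sites does not set the ceh sites apart. Shorter forms of the kind that GATA factors bind, searched on both strands after the windows had been seen, were present. TGATAA lay at 2 of the 7 sites (ceh-37 and the nearer upstream site of ceh-60), against 19.3% of all sites, and AGATAA at 2 others, both of ceh-60, against 6.59%. The share of G and C in the windows ran from 35.6 to 49.5% with a median of 41.6%, against a median of 45.5% for all sites. Widening the search to whole territories, 0 of 59 ceh genes held an exact core, against 356 of the other genes (1.79%), a share that would give 1.05 of 59 genes.

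The ONECUT and CUX class, whose members act together in neurons to switch on genes common to all neurons, had 1 of 5 genes with a site. A further member, ceh-44, was not matched by name and was not analysed here. The site was at ceh-38, on II at chrII:6951526-6955409, with its summit in the 5′ UTR 86 bp downstream of the gene's start and 7 bp from the nearest of 11 annotated transcript starts. The signal was 118.1 (rank 1082) with a −log10 IDR of 3.27. It was 62.81 in replicate 1 and 51.72 in replicate 2, and the lists of both replicates held the site. The same summit lay 312 bp upstream of the start of malt-1, which runs the other way, so the site cannot be given to one of these genes alone.

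The paired-like class, which includes relatives of Otx, Phox and Rax genes, had 1 of 8 genes with a site. This was ceh-37 at chrX:14197372-14208000, an Otx relative known for its part in an olfactory neuron type. The summit lay in a long intron, 7592 bp downstream of the gene's start, 677 bp upstream of the nearest of 4 annotated transcript starts. The site was thus distal to the first start of the gene and closer to the starts of its shorter transcripts. The signal was 88.89 (rank 1862) with a −log10 IDR of 2.57, the weakest of the 5 genes by their best site. It was 52.84 in replicate 1 and 38.89 in replicate 2, and the list of replicate 1 alone held it. On the same chromosome ceh-36, another Otx relative with a role in chemosensory neurons, had no ranked peak of both replicates in its territory.

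The NK-like and related class had 1 of 15 genes with a site, at ceh-5, a relative of the Vax genes on the plus strand of I. The summit lay 1766 bp upstream of its start and had a signal of 136.1 (rank 781) with a −log10 IDR of 3.11. The signal was 93.86 in replicate 1 and 40.34 in replicate 2, and the list of replicate 1 alone held the site. The summit lay inside 2 other genes, in an intron of ocrl-1 and a coding exon of eat-16, and was not within 1000 bp upstream of ceh-5.

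Of the 22 ceh genes not placed in a class, ceh-99 alone had a site, the strongest at any ceh gene. The summit lay 947 bp upstream of the start of ceh-99, which lies at chrII:12519981-12524478, with a signal of 198.5 (rank 265) and a −log10 IDR of 4.71. It was 129.1 in replicate 1 and 68.13 in replicate 2, and the lists of both replicates held it. The site was within 100 bp of the small nucleolar RNA gene T21B4.20 and was 175 bp upstream of srh-70, a chemoreceptor gene. In the whole list 13.8% of sites lay within 100 bp of a tRNA, small nucleolar RNA or small nuclear RNA gene. Without such sites 4 ceh genes had a site, and with each site given to the nearest start there were also 4, as ceh-99 then had none.

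**Figure D3:**
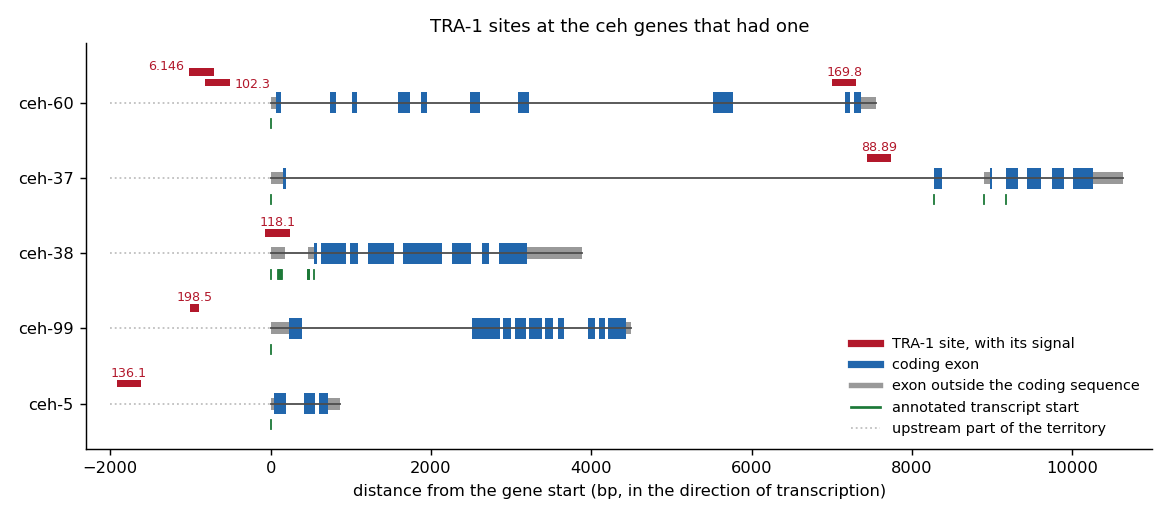
TRA-1 sites (bars above each gene, with their signal) at the 5 ceh genes that had one, by distance from the gene's start in bp in the direction of transcription, with exons, annotated transcript starts and the upstream 2000 bp of the territory. The sites lie upstream of the start at ceh-99 and ceh-5, at the start of ceh-38, in introns far from the start at ceh-37 and ceh-60, and in an overlapping pair upstream of ceh-60.

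The sites lay on both sides of the gene start. In the upstream 2000 bp alone 3 ceh genes had a site (ceh-5, ceh-60 and ceh-99), against 7.8% of all protein-coding genes, and in the gene body alone 3 had one (ceh-37, ceh-38 and ceh-60), against 4.11%. The list of replicate 1 gave the same 5 ceh genes, against 7.59% of all genes. That of replicate 2 gave ceh-38, ceh-60 and ceh-99, against 6.22%. The second thresholded list, which is longer, gave 7 genes, against 12.9% of all genes, adding ceh-20 and ceh-79.

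Most of the 54 ceh genes without a site still had weaker peaks. A ranked peak of both replicates lay in the territory of 50 of the 59 ceh genes (84.7%), against 80.2% of the other genes, and there were 0.761 such peaks per kb, against 0.826. The median −log10 IDR of the best peak, taken as 0 where there was none, was 0.46 over the ceh genes. It was 0.34 over the other genes and 0.36 over genes of like length. A −log10 IDR of at least 1 was reached by 15 ceh genes (25.4%), 10 of them without a site, against 21.8% of the other genes. These values include the peaks that were sites, and by them too the ceh genes were close to the rest.

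**Figure D4:**
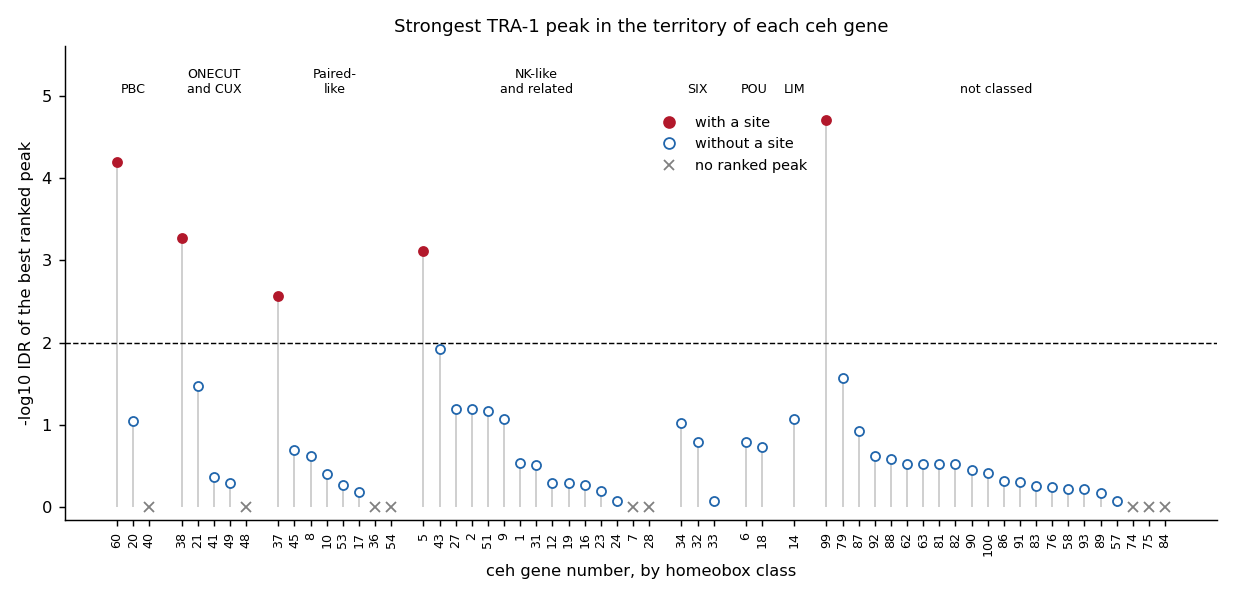
−log10 IDR of the best ranked peak in the territory of each of the 59 ceh genes, ordered by class and value, with the authors' threshold of 2 as a dashed line. The 5 genes with a site stand above it, ceh-43 lies just below at 1.92, and the 9 genes marked with a cross had no ranked peak of both replicates.

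The gene nearest to the threshold was ceh-43, the worm's distal-less gene, which acts in dopaminergic neurons. Its best peak lay 435 bp upstream of the start with a −log10 IDR of 1.92 and a signal of 61.98. The best-scoring peaks of the replicates in its territory had signals of 35.58 in replicate 1 and 31.79 in replicate 2. Of the genes with a site, ceh-37 had the lowest best −log10 IDR, at 2.57. The next genes below ceh-43 were ceh-79 with 1.57 and ceh-21, a ONECUT gene, with 1.48 in an intron (34.56 in replicate 1 and 30.39 in replicate 2). Of the 36 ceh genes without a site that had ranked peaks in each replicate, 16 had the higher best-scoring peak in replicate 2, as at ceh-2 with 22.12 in replicate 1 and 45.23 in replicate 2. These peaks need not lie at the same place in both replicates.

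At ceh-79 and ceh-20 a peak 1149 bp and 753 bp upstream of the start passed the threshold of the second list, whose basis the sources used here do not state, with signals of 72.88 and 69.28. Their −log10 IDR was 1.57 and 1.05. The second list thus did not follow the order by −log10 IDR, as it gave no site at ceh-43 with 1.92. The signal at ceh-79 was 48.05 in replicate 1 and 27.48 in replicate 2. At ceh-20, the worm's Pbx ortholog and a partner of Hox proteins, it was 25.99 in replicate 1 and 32.77 in replicate 2. Neither replicate's own list held the peak at ceh-79 or that at ceh-20. The third PBC gene, ceh-40, had no ranked peak of both replicates, and the best of the peaks in replicate 1 there had a signal of 24.84.

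Among the remaining NK-like and related genes, the best −log10 IDR was 1.20 at ceh-27, 1.19 at ceh-2, an Emx relative that acts in pharyngeal neurons, 1.17 at ceh-51, which acts in the early mesoderm, and 1.08 at ceh-9. It was 0.54 at ceh-1 and 0.52 at ceh-31, a BarH relative. It was 0.30 at ceh-12 and ceh-19, 0.27 at ceh-16, the engrailed gene of the seam cells, 0.20 at ceh-23 and 0.08 at ceh-24. No ranked peak lay at ceh-7 or ceh-28. The relatives of the fly gene sine oculis, none of which had a site, reached 1.03 at ceh-34, which fixes the identity of pharyngeal neurons, 0.80 at ceh-32 and 0.08 at ceh-33. The LIM gene ceh-14, which acts in thermosensory and other neurons, reached 1.07. The POU gene ceh-6, known for its role in the excretory canal cell, reached 0.79, and ceh-18, which acts in the sheath cells of the gonad, reached 0.74 in a territory of 16431 bp.

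The paired-like genes other than ceh-37 lay between 0.19 at ceh-17, a Phox relative, and 0.70 at ceh-45, the goosecoid gene, with no ranked peak at ceh-36 or ceh-54. The ONECUT genes ceh-41 and ceh-49 reached 0.37 and 0.30, and ceh-48 had none. Of the 21 unclassed genes without a site, 18 had a ranked peak, with a best −log10 IDR between 0.08 at ceh-57 and 1.57 at ceh-79 and a median of 0.44. After ceh-79 came ceh-87 with 0.93, ceh-92 with 0.63 and ceh-88 with 0.59, and ceh-74, ceh-75 and ceh-84 had none. Of the 9 genes without a ranked peak of both replicates, 4 had none in the ranked list of either replicate, namely ceh-28, ceh-48, ceh-75 and ceh-84. Among the 45 genes without a site that had a ranked peak, the best lay upstream of the start in 23, in an intron in 12, in a coding exon in 7 and in a UTR in 3. No such split is given for the other genes. The territories of ceh-21 and ceh-41, of ceh-57 and ceh-58, and of ceh-81 and ceh-82 overlap, and the last pair shared the same best peak (0.53).

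Homeobox genes of other names, with the Hox genes left out, had a site at 5 of 33 (15.2%). Their territories were longer than those of the ceh genes, with a median of 6502 bp, and of genes of like length 15.6% had a site, which would amount to 5.16 of 33. They were irx-1 with a signal of 179.6 in an intron, mec-3, which fixes touch neuron identity, with 173.6 at 1469 bp upstream, psa-3 with 134.5 in an intron, and unc-42 with 71.52 at 222 bp upstream. The fifth was unc-62, whose product is a partner of the PBC proteins, with 92.81 and 73.72 at a pair of sites in a 5′ UTR far inside the gene. None of the 4 left-out genes ceh-13, ceh-22, ceh-30 and ceh-39 had a site in its territory. The difference between these lists was not tested.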

How the data were processed

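TRA-1 peak lists of 2 biological replicates of whole L4 larvae were used. Per the file headers and names, the authors deposited lists on ce11: a conservative thresholded list (2703 sites), a second one (3168) and a ranked list (78883 peaks) made from both replicates, and a thresholded and a ranked list for each replicate. The sources used here name no aligner or peak caller, and depth is unknown. Each peak has a deposited score that is higher where the IDR is lower, and the ranked list a −log10 IDR. The signal is the authors' deposited value. The deposited −log10 of q was read and not used. Replicate signals came from the strongest overlapping peak in each replicate's ranked list, and 2 per-replicate columns of the ranked list were not used.

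The ceh genes and lists were chosen with earlier results of these data known. Every ceh gene with a site is named, and the others by their best ranked peak or in a range. Summits were placed on Ensembl release 115 genes. Shares carry 95% Wilson intervals. No p-value was computed. As a check of the code on simulated data, the assignment recovered 20 of 20 ceh genes given a planted site. The planted summits were drawn inside the territories, so this does not test whether the territories are well chosen. Alternatives were other lists, territories, assignments and length tolerances. Python 3.11.15, numpy 2.4.6, scipy 1.17.1 and matplotlib 3.10.9 were used.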

Additional observations from a re-analysis of the deposited data

How the results depend on the processing

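The count of 5 ceh genes with a site ran from 4 to 7 under most other settings, given with the ceh share against that of the other genes. It was 7 under the second list (11.9% against 12.9%) and 4 with an IDR of at most 0.001 (6.78% against 6.12%). It was 4 with 1000 bp upstream (6.78% against 8.83%) and 6 with 5000 bp (10.2% against 16.6%). With the nearest start it was 4 (6.78% against 10.3%), and without sites near short RNA genes 4 (6.78% against 9.72%). It stayed at 5 with overlap of the peak (8.47% against 12%) and with the left-out genes added (7.94% against 11.2%). It was 3 in the upstream 2000 bp alone (5.08% against 7.81%) and 3 in the gene body alone (5.08% against 4.11%). With a replicate left out it ran from 3, without replicate 1 (5.08% against 6.22%), to 5, without replicate 2 (8.47% against 7.59%). The difference from genes of like length changed sign with an IDR of at most 0.001 (0.224 percentage points), in the gene body alone (0.658) and without replicate 2, and with a replicate left out it ran from −1.55 to 0.391. The cause was not tested. Under the other settings it stayed below 0, down to −7.06 with 5000 bp upstream. Leaving out the weakest site of ceh-60, a choice made after seeing the data, changed neither value. No paired analysis was possible because there is 1 group. With 59 genes and no read counts, a difference of this size could not be resolved.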

Other observations

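Of the 54 ceh genes without a site, 14 had one within 10000 bp of the gene, 8 past its end and 6 upstream, and 4 of these were no more than 100 bp from a tRNA gene. The closest were 1144 bp past the end of ceh-12 (at a tRNA gene), 1442 bp past ceh-8, 2064 bp past ceh-89, 2299 bp upstream of ceh-100, 3527 bp past ceh-40 and 3827 bp past ceh-14. The site at ceh-100 missed the 2000 bp limit, while that of ceh-5, at 1766 bp, was inside it. The nearest sites of ceh-33, ceh-90 and ceh-21 lay 5493, 5214 and 6107 bp upstream, each at a tRNA gene. At the other end, the nearest site to ceh-51 was 91855 bp away. No matching counts are given for the other genes, so these distances from the gene edge do not set the ceh genes apart. From the gene start, the median distance to the nearest site was 17819 bp for the ceh genes, against 17731 bp for the other genes, and 28.8% of ceh starts had a site within 10000 bp, against 33.9%.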
